A study of Mus musculus with 8 samples.

Results

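Fibro-adipogenic progenitors (FAPs) are the mesenchymal stromal cells of skeletal muscle, and 10 of their marker genes were followed in RNA sequencing of sorted muscle satellite cells (SCs). The 10 genes were taken by name from a deposited table of 52636 genes, and all 10 had reads in at least 3 of the 8 libraries. The study compared SCs of exercise mice with SCs of sedentary control mice, with 4 libraries in each group. Both groups were male C57B/6J mice, aged 10 weeks when they were divided into groups before the training, and the labels name no transgene or drug for them. Exercise mice ran on a treadmill for 4 weeks, on 4 days per week, for 30 min per day at 12 m per min. About 800 cells per library were sorted from the tibialis anterior, and a kit made for single cells amplified their RNA. The study's captions count mice for these data, but the labels tie no library to an animal, so the p-values measure the spread between these libraries, which may be partly technical.

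FAPs lie between the myofibers, where they deposit collagen and other matrix proteins and send growth signals to SCs, the stem cells of muscle. They are recognised by the receptor tyrosine kinase PDGFRα and the surface protein Sca1, and they can become fibroblasts or adipocytes. A subset that expresses Pi16 and Dpp4 lies around vessels and fascia. The sort in this study took SCs as cells without CD45, CD11b, CD31 and Sca1 and with CD34 and α7-integrin. Sca1 is the product of Ly6a and CD34 that of Cd34, so the gate acted on the proteins of 2 of the 10 genes. Some of the 10 genes are not restricted to FAPs, since Cd34 is used in muscle sorting to select SCs and both Cd34 and Ly6a are also expressed in endothelial cells. The levels of these genes were compared between the SCs of exercise and control mice.

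Several libraries stood apart before any gene was compared. Control libraries held 2339966 to 3013354 reads on genes and exercise libraries held 1011737 to 1200221. Mitochondrial transcripts took 2.09% to 15.3% of the reads in control and 7.56% to 68.7% in exercise, with the 2 highest shares in exercise 3 (50.2%) and exercise 4 (68.7%). The deposited FPKM were not divided by each library's total reads. The size they were divided by was 0.249 times the reads on genes in exercise 4 and 0.924 to 1.58 times in the other 7 libraries, so a read in exercise 4 carried more FPKM, and its FPKM summed to 2488140 against 331669 to 637095 in the others. Exercise 1 and 2 were far more alike than other pairs. Their chi-square over genes with at least 10 reads, divided by its degrees of freedom, was 3.86, against 82.6 to 711 for the other pairs within a group. The share of reads of genes found in control 1 but not control 3 was, at the median, 0.281 times as high in control 4, and that of genes found in control 3 but not control 1 was 0.714 times as high. Exercise 3 stood likewise to exercise 1 (0.299) and exercise 4 (0.677). The marker genes followed the same proportions where their reads were many. The share of reads of Gsn, Apod and Smoc2 was 0.968 to 1.06 times this weighted sum in control 4 and 0.954 to 0.977 times in exercise 3. All 8 libraries entered the tests as labelled, and counts without the doubtful ones stand beside the results.

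Several defining transcripts of the sorted cells were absent. Pax7, Itga7, Cdh15 and Calcr, which mark SCs, had no read in any library, and Myf5 had 4 reads in control and none in exercise. Other SC genes had reads, among them Sdc4, a surface proteoglycan, with 630 reads in control and 729 in exercise, Chodl, with 340 and 0, and Vcam1, with 99 and 0, and so did Cd34, which the gate selected. Mesenchymal transcripts were uneven too, with no read of Hic1, Wnt2 or Gdf10 in any library and many of some matrix genes. Decorin (Dcn), a matrix proteoglycan of fibroblasts, had 1900, 1593, 1346 and 1243 FPKM in control 1 to 4 and 1581, 1544, 1065 and 1504 in exercise 1 to 4. FPKM is reads divided by gene length and by a size of the library. Within a library it ranks genes by reads per base, which need not follow their RNA levels after amplification from about 800 cells. None of 16 haematopoietic markers and none of 7 adipocyte markers had a read, among them Ptprc, Itgam and Adipoq.

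The 10 marker genes did not move together. Clec3b and Gsn passed the adjusted test as higher in exercise, although exercise 4 lay within the control range for Gsn. Cd34 had higher and Pdgfra lower values in every exercise library without passing that test. Dpp4 and Pi16 were not detected in any exercise library, and Ly6a, Dpt, Apod and Smoc2 did not pass the test. The tests used limma on log2(FPKM + 1) over the 4328 genes whose FPKM averaged 1 or more, with Benjamini-Hochberg adjustment over all of them. Of the 10 genes, 9 passed this filter, and Dpp4, with a mean of 0.864 FPKM, did not. A member that is high in 1 group alone can pass the filter through that group, as Cd34 did through exercise and Pi16 through control. Of the 9, 2 rose and 0 fell, where 8.78% of all genes tested rose and 26.8% fell. At an unadjusted p under 0.05 there were 5 of the 9, with Cd34 as well as those 2 higher and Pdgfra and Pi16 lower, where 49.6% of all genes tested had one. The median log2 fold change of the 9 was 0.06, against -1.42 for all genes tested, and 7 of the 9 lay above that median. Quantile normalization moved the median of all genes to -0.44 and turned the balance of all calls from 380 higher and 1161 lower to 566 higher and 375 lower. The filter moved the median of all genes as well, to -0.80 among genes with at least 1 FPKM in 4 libraries and -0.32 with no filter. The marker medians in these settings were 0.21 and -0.30, so with no filter the gap was nearly gone. Control libraries had reads on 5169 to 7307 genes and exercise libraries on 2348 to 3289. Of the 9 tested, the groups did not overlap in 2 that were higher in exercise (Clec3b and Cd34) and 1 that was lower (Pdgfra), where 7.62% of all genes tested were higher and 24.0% were lower without overlap. They did not overlap in Dpp4 either, which was lower and was not among the genes tested. With libraries scaled to their reads outside mitochondrial transcripts or to a constant sum, 1 member (Dpp4) did not overlap. In bulk RNA, fewer cells of a type and less RNA per cell cannot be told apart. The number of calls rested on the libraries in the fit. It was 3 without exercise 4, 0 with exercise 1 and 2 averaged as 1 sample, and 0 when control 4 and exercise 3 were dropped as well. The calls among all genes went from 1541 to 596 and then to 0 in the last 2 of these fits, so the last called no gene at all. The number was also 0 without any 1 of control 3, control 4, exercise 1, exercise 2 and exercise 3, 1 without control 2 and 3 without control 1.

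**Figure D1:**
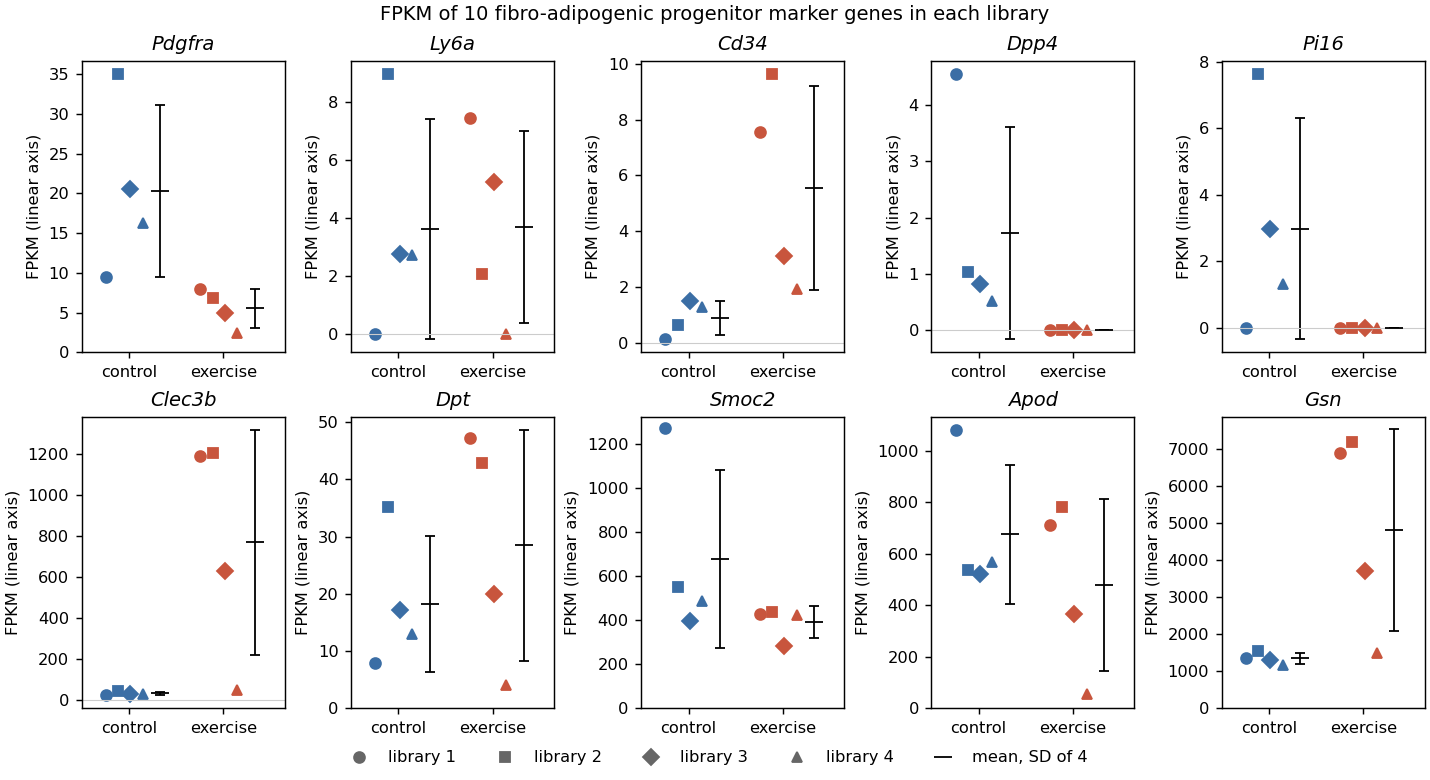
FPKM (linear axes, a scale for each gene) of the 10 marker genes in the 4 control (blue) and 4 exercise (red) libraries, with the mean and SD (n = 4) as a bar. Clec3b and Cd34 lie higher in all 4 exercise libraries, and Pdgfra and Dpp4 lie lower. Exercise 4 is the lowest exercise library for Pdgfra, Ly6a, Cd34, Clec3b, Gsn, Apod and Dpt.

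The FPKM of the 10 genes spanned more than 3 orders of magnitude. By mean FPKM over the 8 libraries the order was Gsn (3081), Apod (577), Smoc2 (534), Clec3b (402), Dpt (23.4), Pdgfra (12.9), Ly6a (3.65), Cd34 (3.21), Pi16 (1.49) and Dpp4 (0.864). Neighbours in this order often did not differ beyond their spread. Apod was above Smoc2 in 2 of 4 control libraries and 3 of 4 exercise libraries, and Dpt was above Pdgfra in 1 of 4 control libraries but in 4 of 4 exercise libraries. In both groups the ranges of Gsn and Apod did not overlap. The order was not the same in each group. The mean of Pdgfra was above that of Dpt in control and below it in exercise, and Clec3b was below Smoc2 in 4 of 4 control libraries and above it in 3 of 4 exercise libraries.

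Of the surface proteins, Pdgfra codes for the receptor of platelet-derived growth factors and is the best known marker of FAPs. Pdgfra (ENSMUSG00000029231, chromosome 5, 75152292 to 75198215 of GRCm38) had 9.44, 35.0, 20.6 and 16.2 FPKM in control 1 to 4 and 7.99, 6.88, 4.95 and 2.42 in exercise 1 to 4. Every exercise value lay below every control value, with control 1 the closest, and exercise 4 held 7 reads. Control averaged 20.3 ± 10.8 FPKM (SD, n = 4) and exercise 5.56 ± 2.44, a ratio of exercise to control of 0.274. The log2 fold change was -1.65 (SE 0.69, limma adjusted p = 0.084). The exact permutation test (two-sided) gave p = 0.0286, the smallest that 4 against 4 allow. This exact test was run on each of the 10 genes and takes the 8 libraries as separate samples. With exercise 1 and 2 averaged, the exact permutation p was 0.0571 for Pdgfra and Dpp4 and 0.0286 for Cd34 and Clec3b. With control 4 and exercise 3 also dropped, no exact permutation p could go below 0.1. Its fold change lay only 0.23 below the median of all genes tested on the log2 scale, and quantile normalization brought it to -0.36. Without control 1 it was -1.95 (adjusted p = 0.0203).

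Ly6a codes for Sca1, which the gate excluded. Ly6a (ENSMUSG00000075602, chromosome 15, 74994877 to 74998031) had 0, 8.94, 2.76 and 2.71 FPKM in control 1 to 4 and 7.44, 2.08, 5.24 and 0 in exercise 1 to 4. These rested on at most 33 reads per library, and the groups overlapped from 0 upward. A count of 0 in exercise 4 allows up to 8.64 FPKM by counting error, close to the highest value seen, so a difference was not detectable at this depth. Exercise against control gave a log2 fold change of 0.06 (SE 0.92, limma adjusted p = 0.961). Ly6a is one of a family of related genes, and reads shared among them could have been assigned elsewhere.

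Cd34 codes for a sialomucin of the surface of SCs, FAPs and endothelium that the gate selected. Cd34 (ENSMUSG00000016494, chromosome 1, 194938819 to 194961279) had 0.12, 0.627, 1.48 and 1.27 FPKM in control 1 to 4 and 7.55, 9.63, 3.09 and 1.90 in exercise 1 to 4. The groups did not overlap (exact two-sided permutation p = 0.0286), although exercise 4 rested on 4 reads and a count of 0 there allows 1.43 FPKM. On the log2 scale exercise was 1.68 above control (SE 0.66, limma adjusted p = 0.067). The control mean of 0.874 FPKM was below the filter of 1, so Cd34 passed the filter through exercise alone. The fold change depends on the pseudocount and was 2.61 with a pseudocount of 0.1. The adjusted p was 0.0198 with quantile normalization, 0.0366 among genes with at least 1 FPKM in 4 libraries and 0.0269 without exercise 4, and it was above 0.05 in the other 17 of 20 settings. With libraries scaled to their reads outside mitochondrial transcripts, the groups overlapped. An antisense gene on the opposite strand, Gm16897, overlaps Cd34 and had 74 reads in exercise and 0 in control, against 233 and 95 reads of Cd34. The use of strand in counting is not given in the sources used here, so reads of the 2 genes cannot be separated with certainty.

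Dpp4 codes for a cell surface peptidase and, like Pi16, marks the perivascular progenitor subset. Dpp4 (ENSMUSG00000035000, chromosome 2, 62330073 to 62412231) had 4.55, 1.03, 0.811 and 0.516 FPKM in control 1 to 4, from 66, 20, 20 and 13 reads. It had no read in exercise 1 to 4. With 3 reads set in each exercise library, the control mean of 1.73 FPKM was at least 2.60-fold higher. With the exercise libraries at 0 as deposited, the exact two-sided permutation p was 0.0286. In exercise 4 the limit from 3 reads was 1.65 FPKM, which exceeds control 2, 3 and 4, whereas in exercise 1 to 3 it was 0.284 to 0.428, below each control library. Without control 1 the control mean was 0.787 FPKM and at least 1.18-fold higher, and without exercise 4 the bound was 5.14-fold.

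Among the secreted proteins, Pi16 codes for a peptidase inhibitor. Pi16 (ENSMUSG00000024011, chromosome 17, 29318877 to 29329413 in the deposited table) had 0, 7.62, 2.96 and 1.32 FPKM in control 1 to 4, from 0, 93, 46 and 21 reads, and no read in exercise 1 to 4. Control 1 was at 0 like the exercise libraries, so the groups overlapped (exact two-sided permutation p = 0.143). The control mean of 2.97 FPKM was at least 2.82-fold above exercise libraries set to 3 reads. This bound was 1.35-fold without control 2 and 5.57-fold without exercise 4. The fitted value of -1.58 on the log2 scale (SE 0.64, limma adjusted p = 0.0756) depends on the pseudocount, and Pi16 passed the filter through control alone. Leaving out control 1, the only control library at 0, gave -2.10 (adjusted p = 0.00736), which is a description and no support for a difference.

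Clec3b codes for tetranectin, a secreted lectin that binds plasminogen. Clec3b (ENSMUSG00000025784, chromosome 9, 123150946 to 123157432) had 27.7, 44.1, 32.5 and 30.4 FPKM in control 1 to 4 and 1193, 1203, 631 and 52.5 in exercise 1 to 4. All exercise values exceeded all control values, with 15 reads in exercise 4 and 694 to 1978 in the other 3. Exercise averaged 769.7 ± 548 FPKM (SD, n = 4) and control 33.7 ± 7.24, a ratio of 22.9. Clec3b rose by 3.78 on the log2 scale (SE 1.0, limma adjusted p = 0.0224, exact two-sided permutation p = 0.0286), and 96.3% of the genes tested had a lower one. Clec3b was higher in exercise in each of the 20 other settings tried, by 2.85 to 4.83 on the log2 scale, and kept an adjusted p under 0.05 in 12. Leaving out 1 library at a time kept it under 0.05 in 3 of 8 fits, with adjusted p up to 0.0723. It was 0.0712 with exercise 1 and 2 averaged, and 0.471 when control 4 and exercise 3 were dropped as well. Scaled to the reads outside mitochondrial transcripts, exercise 4 lay within the control range, at 41.4 reads per 1e6 against 27.5 to 56.6, while exercise 1 to 3 stood at 1162 to 2036.

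Gsn codes for gelsolin, which severs actin filaments and also exists as a secreted plasma form. Gsn (ENSMUSG00000026879, chromosome 2, 35256380 to 35307892) had 1350, 1540, 1308 and 1173 FPKM in control 1 to 4 and 6902, 7201, 3693 and 1484 in exercise 1 to 4. Exercise 1 to 3 stood well above control, and exercise 4 lay between control 1 and control 2. Scaled to the reads outside mitochondrial transcripts, exercise 4 had 3729 reads per 1e6, below the 4268 to 6316 of the control libraries, and exercise 1 to 3 had 21634 to 38786. On the deposited values exercise averaged 4820.0 ± 2733 FPKM (SD, n = 4) and control 1343 ± 152, a ratio of 3.59. Gsn rose by 1.60 on the log2 scale (SE 0.56, limma adjusted p = 0.0485), and the exact two-sided permutation p was 0.0571. It was the most deeply read of the 10 genes, with 1350 to 36435 reads per library. The call was close to the threshold. The adjusted p was 0.00201 without exercise 4 and 0.0603 to 0.132 without any of the other libraries, and 0.132 with exercise 1 and 2 averaged. It was 0.483 with a constant sum, where the log2 value was 0.89, 0.166 with quantile normalization, 0.0945 with no filter, 0.0816 with reads outside mitochondrial transcripts, 0.076 without a trend and 0.508 with exercise 1 and 2 averaged and control 4 and exercise 3 dropped. Of the 20 other settings, 5 kept the adjusted p of Gsn under 0.05.

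Dpt codes for dermatopontin, a small matrix protein that binds decorin. Dpt (ENSMUSG00000026574, chromosome 1, 164796644 to 164824266) had 7.84, 35.2, 17.1 and 13.0 FPKM in control 1 to 4 and 47.2, 42.9, 19.9 and 4.03 in exercise 1 to 4. The lowest and the highest value both lay in exercise, and exercise 4 rested on 2 reads, less than the 3 reads (6.04 FPKM) taken as the limit of a count of 0. Exercise against control gave 0.36 on the log2 scale (SE 0.90, limma adjusted p = 0.751).

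Smoc2 codes for a matricellular protein that binds calcium. Smoc2 (ENSMUSG00000023886, chromosome 17, 14279506 to 14404790) had 1273, 550, 395 and 486 FPKM in control 1 to 4 and 428, 435, 282 and 424 in exercise 1 to 4. Control 1 stood alone, and the other 7 libraries lay between 282 and 550 FPKM with the groups overlapping. The difference on the log2 scale was -0.65 (SE 0.56, limma adjusted p = 0.352), and -0.29 without control 1.

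Apod codes for apolipoprotein D, a carrier of small lipids. Apod (ENSMUSG00000022548, chromosome 16, 31296192 to 31314808) had 1081, 535, 520 and 567 FPKM in control 1 to 4 and 712, 783, 365 and 56.6 in exercise 1 to 4. Control 1 was the highest library and exercise 4 the lowest, with the other 6 between 365 and 783. The groups differed by -0.97 on the log2 scale (SE 0.85, limma adjusted p = 0.358). Without exercise 4 it was -0.13.

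**Figure D2:**
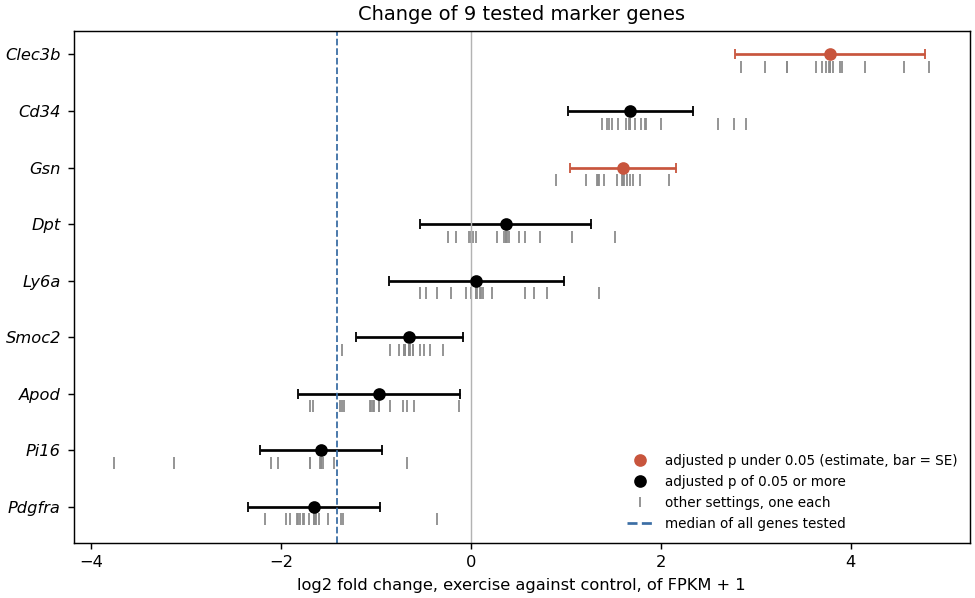
Log2 fold change of FPKM + 1, exercise against control, for the 9 marker genes tested (points, with the standard error as bars), red where the limma adjusted p was under 0.05, with the estimates of the other settings as grey ticks and the median of all genes tested (-1.42) as a dashed line. Clec3b (3.78) and Gsn (1.60) passed the threshold, while Pdgfra (-1.65) and Pi16 (-1.58) lie near the median of all genes.

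Ratios between members within a library do not depend on how libraries are scaled. Of the 7 members with reads in all 8 libraries, 13 of the 21 pairs had ratios that did not overlap between the groups, against 28.7% of all pairs among the 1001 genes tested with reads in every library. Clec3b took part in 5 of its 6 pairs. The ratio of Gsn to Pdgfra was 44.0 to 143 in control and 612 to 1047 in exercise, and that of Gsn to Apod was 1.25 to 2.88 and 9.20 to 26.2. Dpt and Pdgfra, which were near 1 to 1 in control (0.799 to 1.01), stood at 1.66 to 6.24 in exercise. The ratio of Apod to Smoc2 overlapped, at 0.850 to 1.32 in control and 0.133 to 1.80 in exercise. Pairs that share a gene are not independent, so these counts are a description.

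The make-up of the summed level differed between libraries. The 10 genes summed to 3754, 2758, 2301 and 2291 FPKM in control 1 to 4 and to 9304, 9684, 5004 and 2025 in exercise 1 to 4, so the groups overlapped through exercise 4. Gsn made up 36.0% to 56.8% of this sum in control and 73.3% to 74.4% in exercise. Without Gsn, the sum was 994 to 2404 FPKM in control and 541 to 2482 in exercise. Control 1 had the highest sum of the control libraries, although its Gsn was below that of control 2. Clec3b made up 0.737% to 1.60% in control and 12.4% to 12.8% in exercise 1 to 3, with 2.59% in exercise 4. Smoc2 made up 17.2% to 33.9% in control and 4.50% to 5.64% in exercise 1 to 3, with 20.9% in exercise 4.

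**Figure D3:**
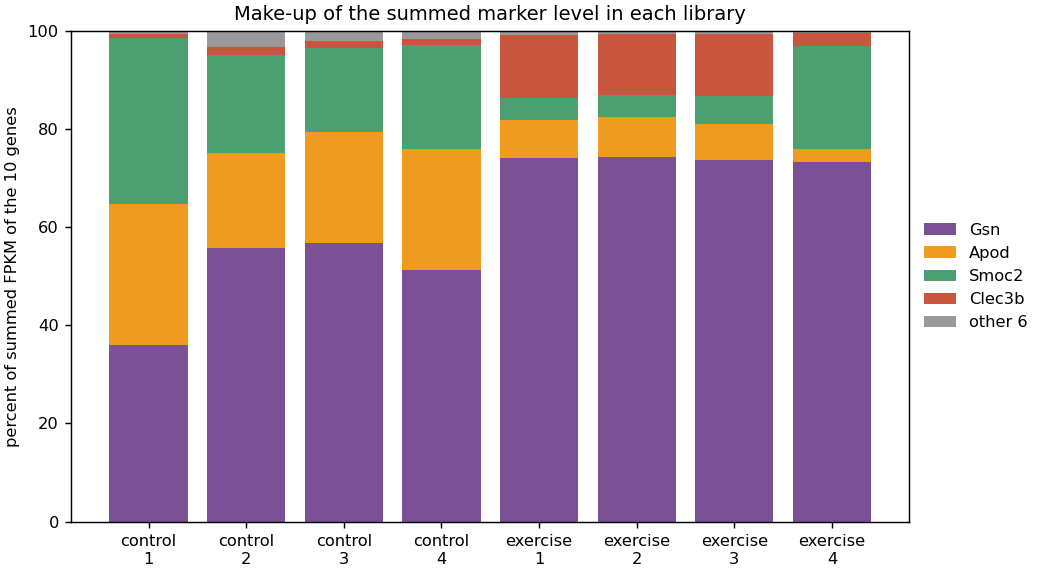
Percent of the summed FPKM of the 10 marker genes (vertical axis) taken by Gsn, Apod, Smoc2, Clec3b and the other 6 genes in each of the 8 libraries (horizontal axis). Gsn takes 73.3% to 74.4% in each exercise library and at most 56.8% in control, and exercise 4 differs from the other exercise libraries in its shares of Smoc2 and Clec3b.

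Other mesenchymal genes were likewise mixed in direction. Of 27 general fibroblast genes, 21 were tested, 2 rose and 2 fell, beside 8.78% and 26.8% of all genes tested. The 2 that rose were Lum, a matrix proteoglycan, with 90.8 to 123 FPKM in control and 311 to 532 in exercise (limma adjusted p = 0.0229), and Fstl1, a secreted glycoprotein, with 22.8 to 45.0 and 283 to 415 (adjusted p = 0.00329). The 2 that fell were the collagen chains Col1a2 and Col5a2. Col1a2 had 388 to 972 FPKM in control and 20.7 to 157 in exercise (limma adjusted p = 0.0246). Col5a2 had 3.32 to 7.18 in control and 0 to 0.873 in exercise (adjusted p = 0.0386), so it passed the filter through control alone. Col1a1, the partner chain of Col1a2 in type I collagen, had 55.3, 19.3, 16.6 and 19.6 FPKM in control and 94.4, 85.8, 47.3 and 11.1 in exercise (adjusted p = 0.396). Dcn had an adjusted p of 0.863. Mgp, an inhibitor of calcification, had 255 to 660 FPKM in control and 158 to 2961 in exercise (adjusted p = 0.167), and Serpinf1, a secreted serpin, had 1014 to 2132 and 85.3 to 1724 (adjusted p = 0.364).

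Of 14 genes of the perivascular or adventitial subset, to which Pi16 and Dpp4 belong, 10 were tested, 1 rose and 3 fell, which is near the 8.78% and 26.8% of all genes tested. The most abundant was Efemp1, a matrix glycoprotein, with 4.07, 0, 2106 and 1177 FPKM in control 1 to 4 and no read in exercise (limma adjusted p = 0.0618). Igfbp6, a binding protein of insulin-like growth factors, had 15.3 to 1018 FPKM in control and 15.6 to 282 in exercise (adjusted p = 0.521). Those that fell were Sema3c, with 1.04, 71.5, 41.2 and 26.2 FPKM in control and at most 0.168 in exercise (limma adjusted p = 0.0164), Mfap5, with 12.0 to 21.3 and 0 to 1.57 (adjusted p = 0.00814), and Fn1, with 14.3 to 153 and 8.02 to 12.7 (adjusted p = 0.0436). The 1 that rose was Has1, a hyaluronan synthase, which had no read in control and 118, 142, 64.7 and 1.66 FPKM in exercise 1 to 4 (adjusted p = 0.0112). Genes with no read or at most 3 reads in 1 group, which among those named as rising or falling are Has1, Sema3c, Pdgfa, Heyl, Myh11, Chodl, Kera, Tek, Scx and Cilp2, passed the filter through the other group alone, and their p-values depend on the pseudocount. Of 8 genes of the parenchymal subset, 5 were tested and 0 passed the adjusted test in either direction, with the fold changes of all 5 below 0 and above the median of all genes tested (-1.42). Its most abundant genes, the chemokine Cxcl14, the collagen Col15a1 and the lipase Lpl, had adjusted p of 0.693, 0.376 and 0.466 by limma. None of the 5 had an unadjusted p under 0.05 by limma, and their exact two-sided permutation p ran from 0.229 to 0.771. Apart from Fn1, the genes of these lists named for passing the test were chosen after their values were seen, to account for each count.

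In the family of Pdgfra, its ligand Pdgfa had 1.96, 29.4, 15.7 and 10.8 FPKM in control 1 to 4 and no read in exercise (limma adjusted p = 0.0104). Pdgfb had 1 read in all, Pdgfc and Pdgfd had none, and the related receptor Pdgfrb had 2.02 to 4.65 FPKM in control and 0.633 to 17.5 in exercise (adjusted p = 0.287). The 3 genes whose levels over the 8 libraries were closest to those of Pdgfra were Eif4a2, Commd6 and Pdgfrl, with root mean square differences of 0.17, 0.21 and 0.28 on the centred log2 scale.

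Markers of other cells varied beside the 10 genes. The endothelial receptor Kdr had 0, 2994, 1669 and 1076 FPKM in control 1 to 4 and at most 0.530 in exercise, while Pecam1, Cdh5 and Emcn were at 0 throughout. Of 14 endothelial genes 5 had reads, and their sum was 0.631 to 2994 FPKM in control and 4.42 to 26.2 in exercise. Of the 2 tested, 1 rose and 1 fell, beside 8.78% and 26.8% of all genes tested. Kdr fell (limma adjusted p = 0.0281), although it passed the filter through control alone and overlapped through control 1 (exact two-sided permutation p = 0.143). Tek, another endothelial receptor, rose (limma adjusted p = 0.00395). With 1 read in control and 466 in exercise, Tek passed the filter through exercise alone. Eng had 6 reads in control and 0 in exercise and was not tested. Of 12 mural cell genes 4 had reads, with sums of 2.88 to 46.3 and 5.72 to 89.3 FPKM, and Rgs5 and Cspg4 were at 0. Of the 3 tested, 1 rose and 0 fell, beside 8.78% and 26.8% of all genes tested. The 1 that rose was Myh11, a smooth muscle myosin (limma adjusted p = 0.00646), which had no read in control. Acta2, a smooth muscle actin, had 0.734, 0, 43.3 and 35.1 FPKM in control 1 to 4 and at most 2.03 in exercise (limma adjusted p = 0.22). All 8 tendon genes had reads, with sums of 547 to 1060 FPKM in control and 243 to 1405 in exercise, and Tnmd led with 233 to 731 and 69.2 to 774 (limma adjusted p = 0.959), followed by Thbs4 (0.312) and Fmod (0.822). Of the 7 tested, the transcription factor Scx rose and the matrix genes Kera and Cilp2 fell, beside 8.78% and 26.8% of all genes tested. Of 15 myofiber genes 14 had reads, with sums of 37172 to 79960 FPKM in control and 20265 to 61210 in exercise, above those of the 10 FAP markers in every library. Of the 13 tested, 4 fell (Myh1, Myl1, Tcap and Mb) and 0 rose, with 6 at an unadjusted p under 0.05 by limma, which is near the 26.8% lower and 49.6% of all genes tested. Myh1 had 848 reads in control and 12 in exercise. Its exercise values of 0, 0, 0.994 and 2.73 FPKM average below the filter of 1, so it passed through control alone. The most abundant, Acta1, Myh4 and Mylpf, had adjusted p of 0.198, 0.473 and 0.873. Of 17 SC genes 13 had reads, with sums of 74.6 to 100.04 and 86.7 to 142 FPKM, and of the 8 tested Heyl rose and Chodl fell, beside the same shares of all genes. Much of these sums came from Des and Sdc4, while Pax7, Itga7, Cdh15 and Calcr had no read. Des, a muscle filament gene, had 17.0 to 48.9 FPKM in control and 11.4 to 92.4 in exercise. Sdc4 had 3.25 to 33.8 in control and 30.0 to 76.1 in exercise. Scx, Kera, Cilp2, Chodl and the 4 myofiber genes were named after their values were seen. The part of these other cells in the levels of the 10 genes was not tested.

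**Figure D4:**
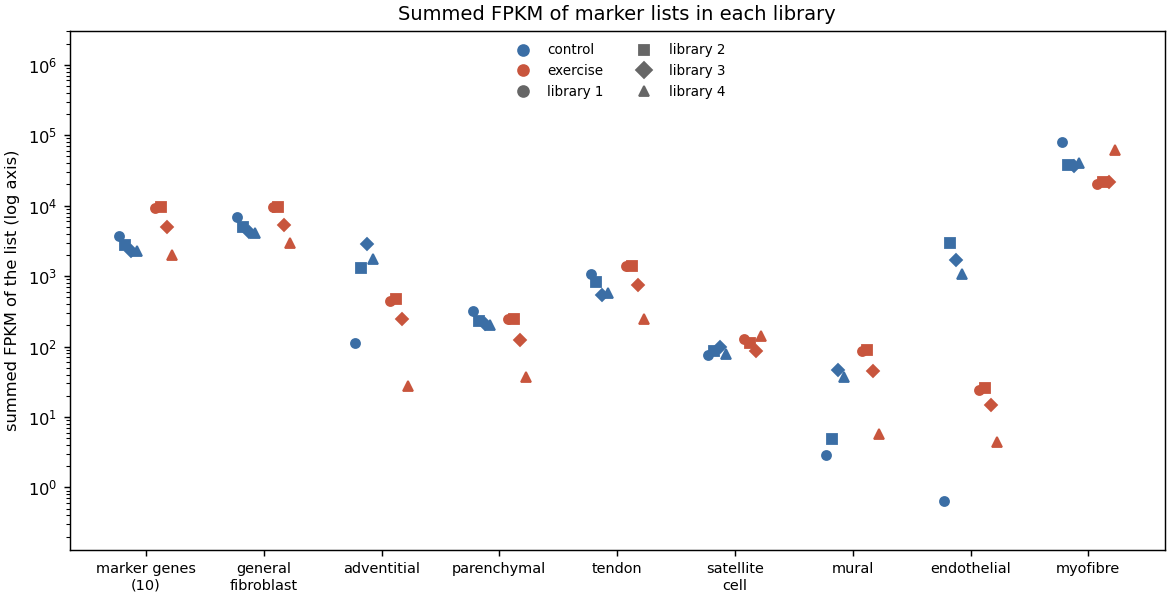
Summed FPKM (log axis) of the 10 FAP marker genes and of 8 other marker lists in each control (blue) and exercise (red) library. The myofiber list is highest in every library, and the sum of the 10 genes overlaps between the groups because exercise 4, at 2025 FPKM, lies below the control libraries.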

How the data were processed

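The authors deposited 1 FPKM table covering all genes and libraries, and named DESeq2 for their own tests. Per the methods and the submitters' processing notes, reads were aligned to mm10 with Bowtie 0.12.9, FPKM was computed with Cufflinks 2.1.1 and reads were counted with HTSeq. Once multiplied by the deposited gene length, the values of a library fell on multiples of 1 step to within 0.001, which gave back the reads behind every value. On these reads voom called 451 genes higher and 791 lower. Entries sharing a symbol were summed, leaving 101 fewer. Of the gene identifiers, 99.6% were in GENCODE M21 (GRCm38). All 10 markers were found there, and 9 had the deposited coordinates, Pi16 being the exception.

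The 4328 genes averaging 1 FPKM or more were fitted with limma 3.58.1 (R 4.3.3, eBayes, trend on) after log2(FPKM + 1), and p-values were adjusted over them by Benjamini-Hochberg at a threshold of 0.05. Fold changes on this scale understate those of low genes. Single genes were also compared by exact two-sided permutation over the 70 assignments. A count of 0 was taken to allow 3 reads. This limit covers counting error alone, because amplified reads are not separate molecules. Tables and figures were made in Python 3.11.15. Alternatives were a pseudocount of 0.1, other filters, quantile, constant-sum and median-of-ratios scaling, no trend, the replicate number as a block, voom on the recovered reads, exercise 1 and 2 averaged, that with control 4 and exercise 3 left out, and each library left out. The median-of-ratios factor was 1.02 in every library, so the deposited values already carried this scaling and that alternative is close to no change. Scaling to reads outside mitochondrial transcripts and the exact tests on fewer samples were added after seeing the data.

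Genes were named by a rule that took all 10 markers, up to 3 genes of highest mean FPKM per other list, the defining markers of each cell type, and the 3 genes nearest to Pdgfra. Other genes named for passing the test were chosen after their values were seen. The members and lists were chosen with earlier results of these data known. The result of 1 marker list is not reported here.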

Additional observations from a re-analysis of the deposited data

Results flagged for a closer look

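On the log2(FPKM + 1) scale, 1 library lay far from the other 3 of its group in 2 of the 22 groups examined, where chance gives about 1.1. Smoc2 was 8.15 in exercise 3, with a gap of 0.939 of the range to the next library, and the other exercise libraries lay close together. Apod was 10.08 in control 1, with a gap of 0.884 of the range.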

How the results depend on the processing

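Over 20 other settings, Clec3b, Gsn and Cd34 were higher in exercise in each, and Pdgfra, Smoc2 and Apod were lower in each. The number of the 9 markers passing the adjusted test (2) was 1 with no filter, with reads outside mitochondrial transcripts, without a trend and with the replicate block, and 0 with a constant sum, with the mean of exercise 1 and 2, and when control 4 and exercise 3 were then dropped. It was 3 with a pseudocount of 0.1, which added Pi16, and with at least 1 FPKM in 4 libraries, which added Cd34. Without 1 library it ranged from 0 to 3. The calls among all genes (1541) were 840 with no filter, 941 with quantile normalization, 596 with that mean, and 0 by limma with those 2 libraries dropped, where 469 had an unadjusted p under 0.05. Without 1 library they ranged from 527 to 1899. The median log2 fold change of the markers was 1.35 with quantile normalization, and -0.36 to 0.67 without 1 library. The members whose groups did not overlap (4) numbered 2 with quantile normalization, in which Dpp4 was not included, 1 with a constant sum and 1 with reads outside mitochondrial transcripts, and 4 to 5 without 1 library. The cause was not tested.

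The fold change of Ly6a turned to -0.0032 with a constant sum, -0.056 with the mean of exercise 1 and 2 and -0.48 with those 2 libraries dropped, and ranged from -0.54 to 0.67 without 1 library. That of Dpt turned to -0.16 with a constant sum and -0.24 with those 2 libraries dropped, and ranged from -0.019 to 1.07 without 1 library.

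Same-numbered control and exercise libraries did not deviate together, with correlations across genes of -0.02 to 0.04, so the numbers were not taken as pairs. With the replicate block 1 marker (Clec3b) was called, Gsn having a limma adjusted p of 0.073, and 1059 genes in all. Exercise 4, with 2 to 15 reads on Dpt, Cd34, Pdgfra and Clec3b, limits what the low markers can show.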
